A study of Homo sapiens with 8 samples.

Results

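The transcripts of 10 amino acid carriers of the plasma membrane were measured by RNA-seq in HuH7 cells, which derive from a human hepatoma. The 10 genes, SLC7A11, SLC3A2, SLC7A5, SLC43A1, SLC7A1, SLC38A1, SLC38A2, SLC1A4, SLC1A5 and SLC6A9, were chosen by symbol from the 15767 genes of the raw count table. All cells were wild type and underwent oxygen-glucose deprivation and reperfusion (OGD/R), an in vitro model of ischemia with 6 h at 1% oxygen in DMEM without glucose and then 6 h of normoxia. During the 6 h of normoxia the medium held either DMSO, the vehicle (I/R+DMSO, n = 4), or 20 µM Rk2, a rare ginsenoside, which is a triterpenoid saponin of ginseng (I/R+Rk2, n = 4). The comparison therefore asks how Rk2 changed the carriers in cells that had all been through OGD/R. No library came from a culture without OGD/R, so the effect of OGD/R itself cannot be read here. The labels do not say whether the 4 libraries of a group came from separate cultures, so p-values measure the spread between these libraries, which may be technical.

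Amino acids cross the plasma membrane mainly through carrier proteins, most of them of the solute carrier (SLC) families. Some carriers are exchangers, which bring in one amino acid against the exit of another, while others use the sodium gradient to concentrate their substrate in the cell. Several are textbook targets of the amino acid response, in which kinases that sense stress or missing amino acids phosphorylate eIF2α and the transcription factor ATF4 accumulates. In liver cells the imported amino acids feed protein synthesis, glutathione synthesis, the urea cycle and the kinase complex mTORC1.

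Library totals were 16374082 to 30310479 counts, and the 10 carriers had between 402 (SLC6A9) and 33546 (SLC38A2) counts per library. In a principal component analysis the first component (39.1% of variance) separated the groups. I/R+DMSO replicate 1 stood apart on the second (15.9%), at 78.7 against -48.5 to -41.5 for the other I/R+DMSO libraries. On the first it was also the farthest out, at -114 against -54.8 to -30.1 for the other I/R+DMSO libraries. The 8 hepatocyte and hepatoma markers, among them ALB and AFP, summed to 4121 to 4599 FPKM in I/R+DMSO, against 4421 to 4575 in I/R+Rk2. The 8 markers of immune, endothelial and fibroblast cells summed to 34.6 to 39.9 and 30.8 to 40.1 FPKM. Most of this sum was CD68, at 24.1 to 32.6 FPKM over all libraries, followed by COL1A2 at 3.5 to 5.7. PTPRC and VWF were listed at 0 in every library. ALB and AFP make up most of the first sum, and 2 of its 8 genes passed the test described next, APOB at a log2 change of 0.61 (edgeR adjusted p = 0.0124) and FGB at -0.27 (edgeR adjusted p = 0.0462).

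Most of the carriers were higher with Rk2. In edgeR's quasi-likelihood test with Benjamini-Hochberg adjustment over 12928 genes, 9 of 10 passed an adjusted p of 0.05 upwards, 0 downwards (0 also at an unadjusted p of 0.05 and in DESeq2), and SLC7A5 did not pass. Of all tested genes, 11.0% passed upwards and 18.2% in either direction. A fold change above 1.5 was also reached by 5 of 10 carriers, SLC7A11, SLC1A4, SLC7A1, SLC6A9 and SLC38A1, against 2.46% of all tested genes. In normalized CPM (counts divided by the TMM-scaled library size), every I/R+Rk2 library lay above every I/R+DMSO library for 9 of 10 carriers, against 15.4% of all tested genes. The median log2 fold change (I/R+Rk2 over I/R+DMSO) was 0.58 over the 10 carriers and -0.0021 over all tested genes. The 10 carriers were chosen with earlier results of these data known, so their distance from all tested genes is no independent evidence. Without I/R+DMSO replicate 1, 9 carriers still passed. In bulk RNA, more transcript per cell and a larger share of cells carrying it cannot be told apart.

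**Figure D1:**
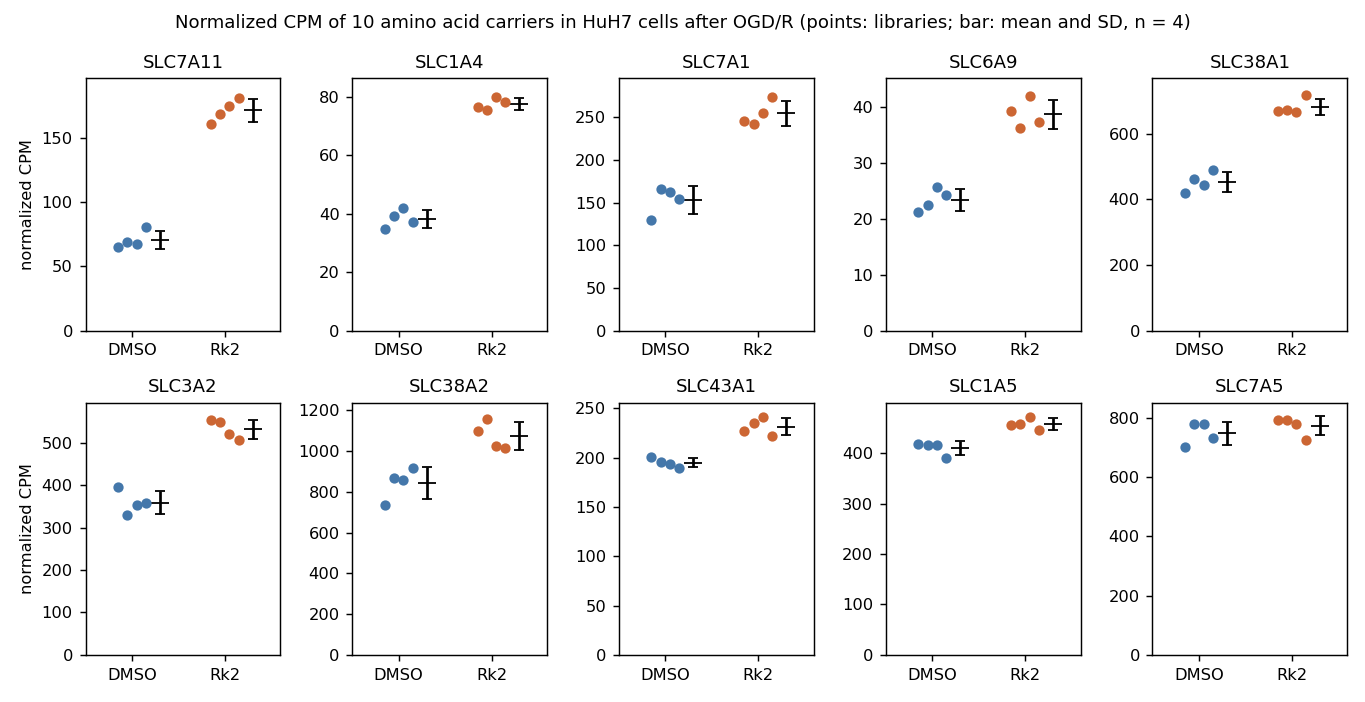
Normalized CPM (y axis, linear from 0) of each carrier in the 4 I/R+DMSO and 4 I/R+Rk2 libraries (x axis), ordered by log2 fold change, with points for libraries and bars for mean and SD. The groups are apart for 9 carriers and overlap for SLC7A5, the last panel.

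Together, the 10 carriers took 0.305 to 0.336% of all counts in the I/R+DMSO libraries and 0.426 to 0.443% in the I/R+Rk2 libraries. Their summed normalized CPM was 3296 ± 119 (SD, n = 4) and 4290 ± 81.0 (SD, n = 4). The groups did not overlap in this sum.

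Per length of transcript, on the FPKM scale, the carriers covered a wide range of levels. In I/R+DMSO the highest was SLC3A2 at 322 ± 9.46 FPKM (SD, n = 4), followed by SLC38A2 (232 ± 43.1), SLC1A5 (179 ± 14.6), SLC7A5 (137 ± 8.14), SLC43A1 (89.7 ± 5.81), SLC38A1 (51.5 ± 3.98) and SLC7A1 (17.8 ± 2.18). The lowest were SLC6A9 (7.38 ± 0.772), SLC1A4 (7.0 ± 1.14) and SLC7A11 (6.09 ± 0.637). Neighbours in this order were apart in every library except SLC38A2 and SLC1A5, SLC6A9 and SLC1A4, and SLC1A4 and SLC7A11. In I/R+Rk2 the first 7 places were the same. SLC7A11, at 15.4 ± 0.60 FPKM, then lay above SLC1A4 (13.6 ± 0.850) and SLC6A9 (12.5 ± 0.943) in the group means, apart from SLC1A4 in every library, whereas SLC1A4 and SLC6A9 overlapped.

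Because several of these genes are known ATF4 targets, their promoters were searched for TGATGNAA, the form in which C/EBP-ATF response elements (CAREs), where ATF4 binds with a C/EBP partner, are commonly written. Windows from 250 bases before to 50 after a start site came from RefSeq (GRCh38.p14) and matched 9 of 10 carriers with 16 windows. SLC7A11 had no entry. On either strand, 5 of these 9 genes had a match, compared with 4.46% of the 27305 genes with a window. By window, 5 of their 16 had a match, compared with 3.62% of 35116 windows. The 5 stretches are shown 5′ to 3′ on the gene's strand because they are the letters these promoters share, with the match in capitals, as written or as its reverse complement.
SLC1A4: cggctcccgtTTGCATCAtctccagccg
SLC3A2: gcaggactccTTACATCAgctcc
SLC38A1: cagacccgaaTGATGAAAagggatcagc
SLC7A1: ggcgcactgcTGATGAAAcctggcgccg
SLC1A5: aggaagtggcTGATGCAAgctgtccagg
They lie at chr2:64989382-64989409 (plus strand), chr11:62881726-62881748 (plus strand), chr12:46266503-46266530 (minus strand), chr13:29595664-29595691 (minus strand) and chr19:46784894-46784921 (minus strand). Counted from the start site of the matching window at 0, the matches began at -7, 37, -4, 7 and -97. For SLC1A4, SLC3A2, SLC38A1 and SLC1A5 this start site lies inside the gene coordinates given below, not at their outer end. The windows of SLC7A5, SLC43A1, SLC38A2 and SLC6A9 did not hold these letters. The carriers include known ATF4 targets and were chosen with earlier results of these data known, so these shares are no independent evidence. A match is a string of letters, and no binding was measured in these cells.

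A second string, TGACNNNGC, the core of the antioxidant response element to which NRF2 binds, was present in 4 of 9 carriers (SLC3A2, SLC7A1, SLC7A5 and SLC1A5), compared with 16.1% of genes with a window. By window, 4 of the carriers' 16 had a match, compared with 13.3% of all windows. The limit from the choice of the carriers holds here too. No match to one string overlapped a match to the other in these genes.

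The cystine carrier changed most. SLC7A11 (GRCh38 chr4:138164097-138242349, minus strand) encodes xCT, the light chain of system xc-, which imports cystine against glutamate and so supplies cysteine for glutathione. Its normalized CPM was 65.3, 69.4, 67.2 and 80.5 in I/R+DMSO replicates 1 to 4 and 161, 169, 175 and 181 in I/R+Rk2. The lowest I/R+Rk2 library was thus far above the highest I/R+DMSO library. The group means were 70.6 ± 6.80 and 172 ± 8.68 (SD, n = 4 each), a log2 change of 1.28 (SE 0.0730, edgeR adjusted p = 6.65e-05) or 2.43-fold. By p-value it ranked 14 among all tested genes. Leaving out single libraries gave values of 1.25 to 1.35. Its exons overlap 865 bases of the antisense gene SLC7A11-AS1, and as the sources used here do not state whether reads were counted by strand, the 2 genes' reads may not be separate.

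SLC3A2 (chr11:62856102-62888875, plus strand) encodes the heavy chain CD98hc (4F2hc), the single-pass glycoprotein that brings xCT, LAT1 and several other light chains to the cell surface. It had 396, 330, 352 and 357 CPM in I/R+DMSO and 552, 548, 521 and 505 in I/R+Rk2. All I/R+Rk2 libraries were above all I/R+DMSO libraries in CPM. SLC3A2 rose from 359 ± 27.4 to 532 ± 22.4 CPM (± SD, n = 4 each), which is a log2 change of 0.57 (SE 0.0600, edgeR adjusted p = 0.00107). At 1.48-fold it lay just under the 1.5-fold limit.

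The FPKM table gave another picture for this gene in 1 library. SLC3A2 was 336, 319, 317 and 316 FPKM in I/R+DMSO and 515, 466, 502 and 308 in I/R+Rk2. I/R+Rk2 replicate 4, the lowest of all 8, made the groups overlap. The length implied by its count and FPKM was 1663 bases in that library, against 1032 to 1188 bases in the other 7, and the deviation from the gene's median was 1.5-fold. A largest deviation at least as big was seen in 16.2% of the 12772 genes compared. In limma on log2(FPKM + 1), SLC3A2 changed by 0.45 (adjusted p = 0.0982), and without I/R+Rk2 replicate 4, an alternative chosen after seeing the data, 0.62 (adjusted p = 0.0029).

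**Figure D2:**
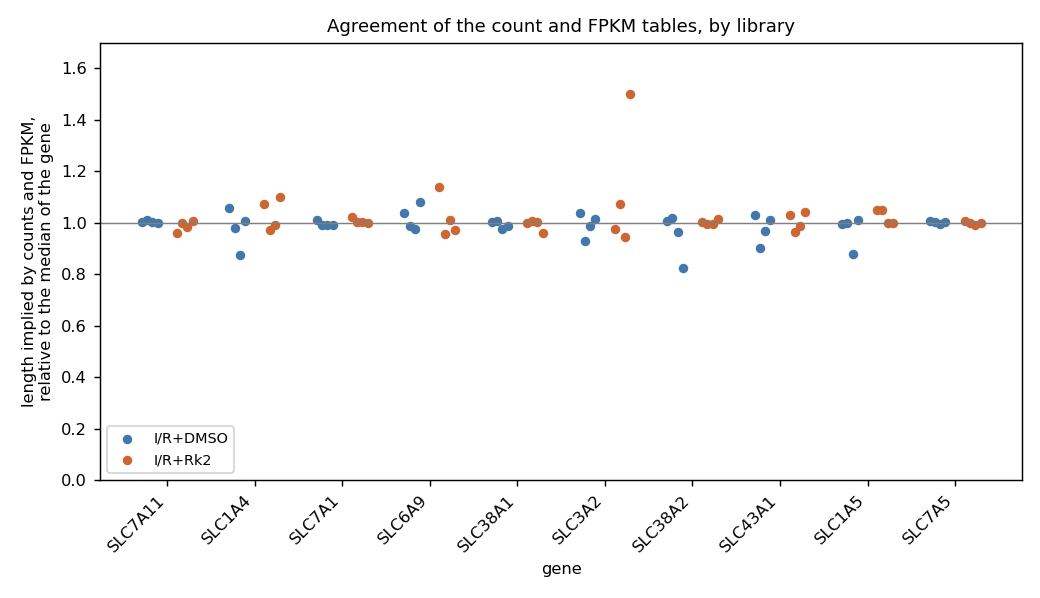
Transcript length implied by the count and FPKM of each library, relative to the median of the gene over the 8 libraries (y axis), for each carrier (x axis), with a point per library coloured by group. Points at 1 mean that both tables give the same picture, and SLC3A2 in I/R+Rk2 replicate 4 stands at 1.5.

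SLC7A5 (chr16:87830023-87869488, minus strand) encodes LAT1, the light chain that exchanges leucine and other large neutral amino acids and, like xCT, needs CD98hc. It was the only carrier of the 10 that did not pass. Its CPM was 700, 778, 778 and 730 in I/R+DMSO and 793, 791, 779 and 725 in I/R+Rk2, so the groups overlapped through most of their range. The log2 fold change was 0.05 with a 95% interval of -0.06 to 0.16 (edgeR adjusted p = 0.527), which leaves room for a change of up to 1.12-fold upwards. Its exons overlap 271 bases of AC126696.2 on the opposite strand. SLC43A1 (chr11:57484534-57515786, minus strand) encodes LAT3, which carries leucine and other large neutral amino acids by facilitated diffusion without a heavy chain. Its level was 201, 195, 193 and 190 CPM in I/R+DMSO and 227, 235, 241 and 222 CPM in I/R+Rk2. The groups were apart, by a small step relative to their level. SLC43A1 rose by a log2 fold change of 0.25 (SE 0.0390, edgeR adjusted p = 0.00522), and in limma on log2(FPKM + 1) the value was 0.23 with an adjusted p of 0.0687.

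Cationic amino acids enter through the y+ carrier CAT1, the product of SLC7A1 (chr13:29509410-29595688, minus strand), which takes up arginine, lysine and ornithine. SLC7A1 had 129, 167, 162 and 154 CPM in I/R+DMSO and 246, 243, 256 and 274 in I/R+Rk2. I/R+DMSO replicate 1 was the lowest library of its group, and the groups were apart with and without it. SLC7A1 rose from 153 ± 16.7 to 255 ± 14.3 CPM (± SD, n = 4 each), which is a log2 change of 0.73 (SE 0.0822, edgeR adjusted p = 0.00134), and 0.66 without I/R+DMSO replicate 1. In 8 fits that each left out a library, its adjusted p was at most 0.00622.

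SLC38A1 (chr12:46183063-46270017, minus strand) and SLC38A2 (chr12:46358189-46372867, minus strand) encode SNAT1 and SNAT2, the sodium-coupled system A carriers of glutamine, alanine and other small neutral amino acids. SLC38A1 had 419, 462, 445 and 491 CPM in I/R+DMSO and 670, 674, 666 and 718 in I/R+Rk2. Its groups did not overlap, and I/R+Rk2 replicate 4 was the highest library. SLC38A1 rose by a log2 fold change of 0.59 (SE 0.0540, edgeR adjusted p = 0.000621), which is 1.5-fold and only just past the fold limit.

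SLC38A2, the family member known to be induced when amino acids run short, started from a higher level per length. It had 734, 869, 859 and 919 CPM in I/R+DMSO and 1098, 1156, 1022 and 1012 in I/R+Rk2. The groups were apart in CPM, but in FPKM I/R+DMSO replicate 4 (290) lay above I/R+Rk2 replicates 1, 3 and 4 (289, 271 and 265). In that I/R+DMSO library the length implied by count and FPKM was 3150 bases, against 3679 to 3896 in the other libraries. The log2 fold change in CPM was 0.34 (SE 0.0753, edgeR adjusted p = 0.0182). Without I/R+Rk2 replicate 2 it was 0.31 with an adjusted p of 0.0514, and in limma on log2(FPKM + 1) it was 0.30 with an adjusted p of 0.157.

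Of the neutral amino acid exchangers, SLC1A4 (chr2:64988477-65023865, plus strand) encodes ASCT1, a carrier of alanine, serine and cysteine. SLC1A4 had 34.8, 39.2, 42.0 and 37.1 CPM in I/R+DMSO and 76.4, 75.4, 79.9 and 78.3 in I/R+Rk2. The I/R+Rk2 libraries were close together and well above all I/R+DMSO libraries. SLC1A4 rose from 38.3 ± 3.06 to 77.5 ± 2.0 CPM (± SD, n = 4 each), which is a log2 change of 1.02 (SE 0.0627, edgeR adjusted p = 9.91e-05) or 2.02-fold, and ranked 19 among all tested genes by p-value.

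SLC1A5 (chr19:46774883-46788594, minus strand) encodes ASCT2, the glutamine exchanger of the same family. It had 419, 417, 416 and 390 CPM in I/R+DMSO and 455, 459, 472 and 445 in I/R+Rk2. The groups were apart in CPM by a narrow margin, and overlapped in FPKM through I/R+DMSO replicate 3 (199 against 187 to 204 in I/R+Rk2). In that library the implied length was 2056 bases, against 2330 to 2453 in the other libraries. The exons of SLC1A5 overlap 780 bases of AC008622.2 on the opposite strand. The log2 fold change was 0.16 (SE 0.0372, edgeR adjusted p = 0.0237). This call was lost without I/R+DMSO replicate 3 (adjusted p = 0.0513), without I/R+Rk2 replicate 1 (0.0549), 2 (0.0624) or 3 (0.0680), and in limma on log2(FPKM + 1), with an adjusted p of 0.319.

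SLC6A9 (chr1:43991500-44031467, minus strand) encodes GLYT1, a sodium- and chloride-coupled glycine carrier. It had the fewest counts of the 10 carriers, with 402 to 520 in I/R+DMSO, against 685 to 1203 in I/R+Rk2. In CPM it was 21.3, 22.4, 25.7 and 24.4 in I/R+DMSO and 39.4, 36.3, 42.0 and 37.3 in I/R+Rk2. The groups were well apart. SLC6A9 rose by a log2 fold change of 0.72 (SE 0.0767, edgeR adjusted p = 0.00107), or 1.65-fold. Its exons overlap 404 bases of CCDC24 on the opposite strand, a gene with 76 to 125 counts per library.

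Long genes had higher fold changes across the data, with a Spearman rho of 0.388 between log2 fold change and implied length over 12926 genes. Of the carriers, SLC7A11, SLC38A1 and SLC7A1 were at the 98.5, 96 and 95.6 percentile of implied length, and SLC3A2 at 6.55. With a loess correction for gene length, rho was -0.0052 and 9 of 10 carriers passed upwards, against 7.94% of all tested genes. The corrected log2 fold change was 1.01 for SLC7A11, 0.52 for SLC7A1 and 0.70 for SLC3A2. SLC38A1 went from 0.59 to 0.36 (adjusted p = 0.000128). After the correction SLC38A1 and SLC7A1 both lay below the 1.5-fold limit, and SLC3A2 lay above it. In limma on log2(FPKM + 1), 5 of 10 carriers passed upwards (SLC7A11, SLC1A4, SLC7A1, SLC6A9 and SLC38A1), against 6.83% of the 11884 genes tested, and 6 of 10 did without I/R+Rk2 replicate 4.

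**Figure D3:**
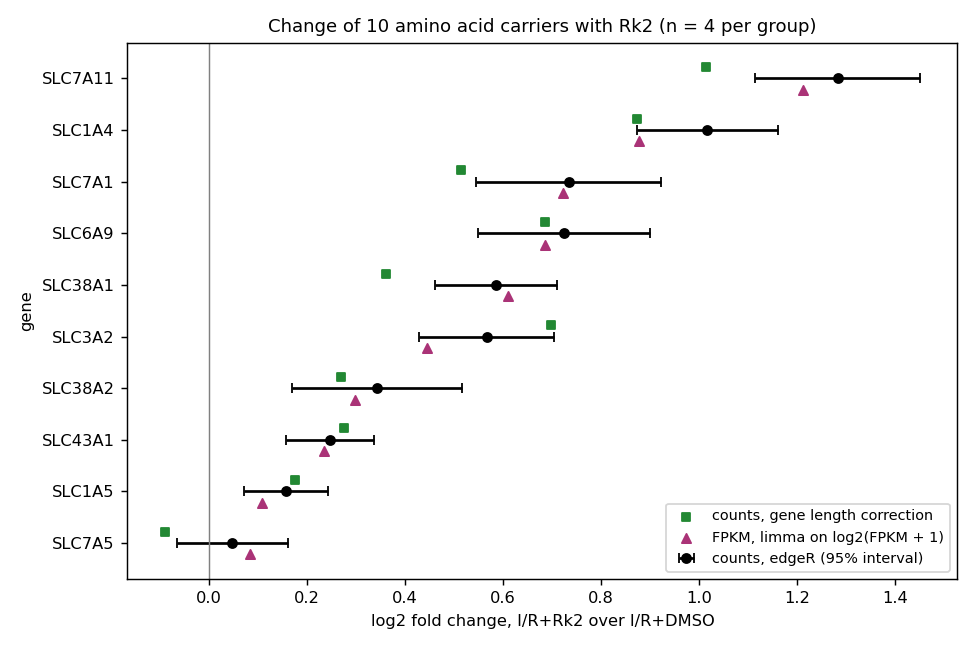
Log2 fold change of each carrier (x axis, I/R+Rk2 over I/R+DMSO, n = 4 each; genes on the y axis) from counts with edgeR (circles with 95% intervals), with gene length correction (squares) and from FPKM with limma (triangles). All 3 values are above 0 for 9 carriers, and for SLC7A5 they run from -0.09 to 0.08.

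To ask whether carriers that share a partner or a transport system changed by unequal amounts, 6 ratios of FPKM were taken within each library and compared with a two-sided exact permutation test over 70 splits, for which 0.0286 is the smallest p. SLC7A11/SLC3A2 was 0.0166 to 0.0222 in I/R+DMSO, against 0.0288 to 0.0519 in I/R+Rk2 (p = 0.0286, adjusted over the 6 ratios 0.0429, exact permutation). All I/R+Rk2 libraries were above all I/R+DMSO libraries. The value of 0.0519 was that of I/R+Rk2 replicate 4, whose SLC3A2 FPKM departed from its count, and replicates 1 to 3 had 0.0288 to 0.0320. The log2 difference was 0.89 in FPKM, 0.70 without that library and 0.72 from CPM (adjusted exact permutation p = 0.0343 from CPM). The gap between the light and heavy chain was smaller with length correction, at log2 changes of 1.01 for SLC7A11 and 0.70 for SLC3A2, in place of 1.28 and 0.57. SLC7A11/SLC7A5, the ratio of the 2 light chains that share CD98hc, was 0.0405 to 0.0521 in I/R+DMSO, against 0.101 to 0.117 in I/R+Rk2 (log2 difference 1.26, adjusted exact permutation p = 0.0429).

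SLC7A5/SLC3A2 overlapped between the groups in FPKM, at 0.375 to 0.450 in I/R+DMSO, against 0.286 to 0.443 in I/R+Rk2 (log2 difference -0.36, adjusted exact permutation p = 0.0857). I/R+Rk2 replicate 4 again was the library within the I/R+DMSO range. From CPM, where that library's SLC3A2 was near the others, the log2 difference of this ratio was -0.52, with the groups apart (adjusted exact permutation p = 0.0343). SLC1A4/SLC1A5 was 0.0329 to 0.0426 in I/R+DMSO, against 0.0671 to 0.0745 in I/R+Rk2, and SLC38A2/SLC38A1 was 4.01 to 5.17 and 3.07 to 3.99 (adjusted exact permutation p = 0.0429 for each). When 1 was added to each FPKM before division, the log2 difference was 0.77 for SLC7A11/SLC3A2, 1.13 for SLC7A11/SLC7A5 and 0.77 for SLC1A4/SLC1A5, each still at the smallest exact permutation p of 0.0286 but adjusted to 0.0571, since SLC38A2/SLC38A1 (-0.31, adjusted exact permutation p = 0.0686) left that floor. SLC1A4/SLC1A5 was higher and SLC38A2/SLC38A1 lower with Rk2, each with the groups apart. With length correction of the counts, the log2 changes of SLC38A2 and SLC38A1 were closer, at 0.27 and 0.36 in place of 0.34 and 0.59. SLC43A1/SLC7A5 overlapped, at 0.627 to 0.689 and 0.686 to 0.760 (adjusted exact permutation p = 0.0686).

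**Figure D4:**
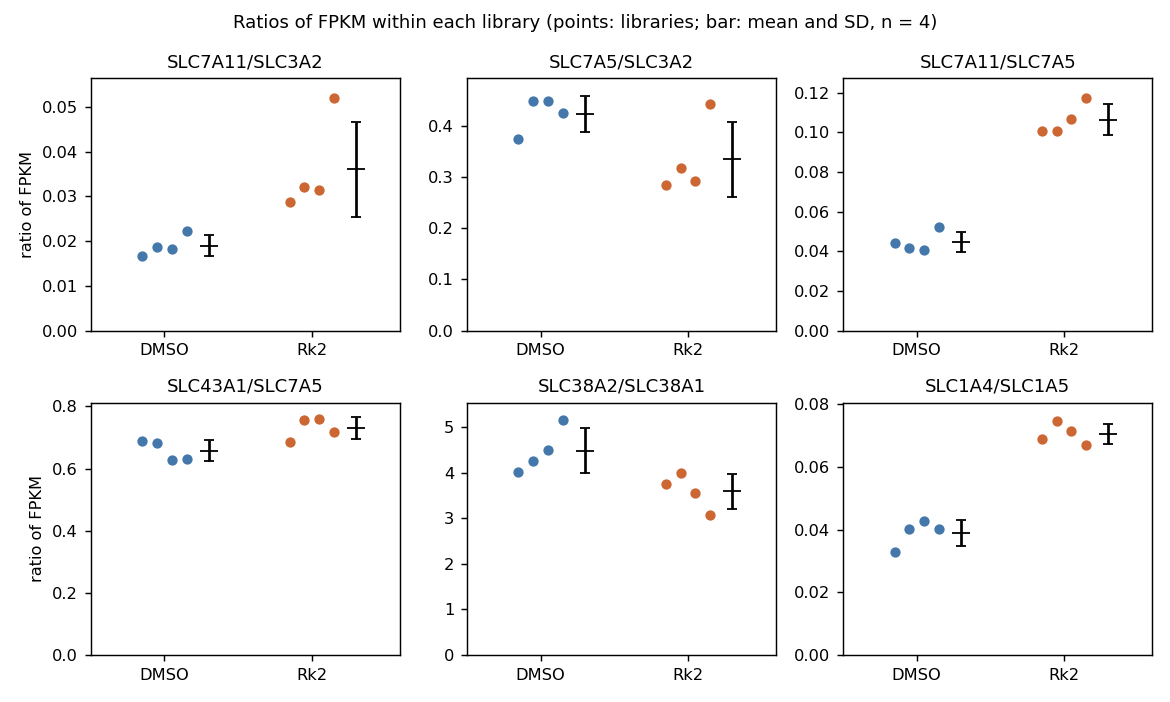
Ratios of FPKM between carriers within each library (y axes, linear from 0) in I/R+DMSO and I/R+Rk2 (x axes), with points for libraries and bars for mean and SD, n = 4. The groups are apart for 4 ratios and overlap for SLC7A5/SLC3A2 and SLC43A1/SLC7A5.

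Of 24 further amino acid carriers of the plasma membrane in the table, 16 passed the count filter. Of these, 2 rose (12.5%, against 11.0% of all tested genes), 2 fell and 12 did not pass. The median log2 fold change was 0.15. SLC38A4, which encodes the liver-enriched system A carrier SNAT4, rose from 29.5 ± 2.46 to 43.4 ± 3.23 CPM (± SD, n = 4 each), which is a log2 change of 0.56 (edgeR adjusted p = 0.00392). SLC16A10, an aromatic amino acid carrier with 48 to 224 counts, had a log2 change of 1.00 (edgeR adjusted p = 0.0373) but 0.029 in limma on log2(FPKM + 1), and its call was lost without any library other than I/R+DMSO replicate 3 (adjusted p = 0.0675 to 0.0899). SLC43A2, which encodes the LAT3 relative LAT4, fell by 0.28 on the log2 scale (edgeR adjusted p = 0.0116), a call that limma on FPKM did not make (adjusted p = 0.186). SLC7A7, another light chain of CD98hc (y+LAT1), fell from 16.4 ± 0.876 to 13.3 ± 0.667 CPM (± SD, n = 4 each), which is a log2 change of -0.30 (edgeR adjusted p = 0.0191), and this call was lost without I/R+Rk2 replicate 1 (adjusted p = 0.0502) or 4 (0.0547), while limma on log2(FPKM + 1) gave -0.62 (adjusted p = 0.0260). For 2 more CD98hc light chains, chosen after their values were seen, the groups overlapped, with log2 fold changes of 0.18 for SLC7A6 (edgeR adjusted p = 0.760) and 0.20 for SLC7A10 (edgeR adjusted p = 0.183). Of all 229 other tested solute carriers, 43 rose (18.8%) and 16 fell, with a median of 0.08.

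Of 16 tested lysosomal and mitochondrial amino acid carriers, 2 rose (12.5%, against 11.0% of all tested genes), 2 fell and 12 did not pass. The median log2 fold change was 0.08. CTNS, the lysosomal cystine exporter, was 22.2, 20.7, 21.9 and 24.1 CPM in I/R+DMSO and 28.3, 28.6, 27.9 and 27.3 CPM in I/R+Rk2, which is 0.34 on the log2 scale (edgeR adjusted p = 0.00833) with the groups apart. SLC25A22, a mitochondrial glutamate carrier, had a log2 change of -0.31 (edgeR adjusted p = 0.00407), not past the threshold in limma on FPKM (adjusted p = 0.141). SLC25A13, the mitochondrial aspartate-glutamate exchanger citrin, rose by 0.22 (edgeR adjusted p = 0.0445) with overlapping groups, and the mitochondrial serine carrier SFXN1 fell by 0.12 (edgeR adjusted p = 0.0458). Both of these last calls were lost in most fits that left out 1 library, SLC25A13 in all but that without I/R+Rk2 replicate 1 and SFXN1 in all but that without I/R+DMSO replicate 1. In limma on log2(FPKM + 1) SLC25A13 had 0.23 (adjusted p = 0.0974) and SFXN1 -0.43 (adjusted p = 0.00598), and with library size only SFXN1 was not past the threshold (adjusted p = 0.120).

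Of 22 tested genes of the amino acid response, 15 rose (68.2%, against 11.0% of all tested genes), 0 fell and 7 did not pass. The number that fell was 0 also at an unadjusted p of 0.05 and in DESeq2. The median log2 fold change was 0.64. This list holds well-known ATF4 targets and was compiled with earlier results of these data known, so its direction is no independent evidence. STC2, a secreted glycoprotein, rose by 1.51 (edgeR adjusted p = 1.91e-06), from 52.6 ± 1.95 to 150 ± 2.03 CPM (SD, n = 4 each). ASNS, which makes asparagine, rose by 1.00 (edgeR adjusted p = 5.48e-06). DDIT4, an inhibitor of mTORC1 signalling, rose by 1.13, and PSAT1, an enzyme of serine synthesis, by 0.63 (edgeR adjusted p = 3.37e-05 for each).

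Of 20 tested enzymes that act on the carried amino acids, 4 rose (20%, against 11.0% of all tested genes) and 0 fell, with a median of -0.03. At an unadjusted p of 0.05, 5 were lower, and 2 passed downwards in DESeq2. ASS1, which joins citrulline and aspartate in the urea cycle, rose from 58.8 ± 1.12 to 77.6 ± 1.56 CPM (± SD, n = 4 each), which is a log2 change of 0.40 (edgeR adjusted p = 0.000695). GCLM, the modifier subunit of the ligase that starts glutathione synthesis from cysteine, rose by 0.34 (edgeR adjusted p = 0.00105). BCAT1, the cytosolic branched-chain aminotransferase, rose by 0.59 (edgeR adjusted p = 0.00255). Some enzymes of amino acid metabolism were counted with the amino acid response genes instead. Among them were ASNS, PSAT1, PHGDH and CTH, which rose, and SHMT2, PYCR1, PSPH and ALDH18A1, which did not pass. The share and median of the enzyme list depend on this split.

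Of 29 tested genes that relay amino acid signals to mTORC1 or encode parts of it, 6 rose (20.7%, against 11.0% of all tested genes) and 1 fell. The median was -0.01. Within this list, the 4 with the smallest p-values belong to the lysosomal Rag GTPases and the folliculin complex that acts on them. FNIP1, a partner of folliculin, rose from 14.6 ± 1.56 to 30.5 ± 1.36 CPM (± SD, n = 4 each), which is a log2 change of 1.06 (edgeR adjusted p = 0.000328). FLCN, folliculin itself, rose by 0.69 (edgeR adjusted p = 0.000783). The Rag GTPases RRAGC and RRAGD rose by 0.82 and 0.69 (edgeR adjusted p = 0.000432 and 0.000986), and for all 4 genes the groups were apart. The gene that fell, named after its values were seen, was RPTOR, the mTORC1 scaffold raptor, at -0.19 (edgeR adjusted p = 0.0373). SESN2, a relative of SESN1 and SESN3 of this list, was counted with the amino acid response genes instead. Also named after its values were seen, SESN2 rose by 1.32 (edgeR adjusted p = 5.24e-05), so the share above depends on how genes were allotted to the lists.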

How the data were processed

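RNA-seq was performed by the authors on 250 ng of total RNA per library. The submitters' processing notes list FastQC 0.11.5, HISAT2 2.2.1, StringTie 1.3.3 and hg38, while annotation, counting tool and strand setting are not given in the sources used here. The authors deposited unnormalized read counts of 15767 genes and FPKM, which they scaled by length and depth, of 19799. Among the counts, 22 symbols had been turned into dates (0.111% of counts) and were kept as unnamed features.

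Groups came from the deposited labels. The 10 carriers and all gene lists were chosen with earlier results of these data known. Of 5 further lists, the 4 tested genes with the smallest p are named, except for an item that is not reported here. Counts were tested with edgeR 4.0.16 (robust quasi-likelihood, TMM, condition as the only term; R 4.3.3) where 4 or more libraries had 10 counts. FPKM was tested with limma 3.58.1 on log2(FPKM + 1) for genes with a mean of at least 0.5, which understates changes of low genes. Length was derived as counts per FPKM. On data simulated for I/R+Rk2 against I/R+DMSO (12795 genes), edgeR found 177 of 200 genes changed by 1 on the log2 scale, with 8 false calls. The 200 genes were drawn from those with higher counts, and no length trend was simulated. The share found therefore does not carry over to smaller changes such as those of most carriers. Averaged over genes, the variance between replicates was 16.0 to 28.8 times that of counting error alone (chi-square per degree of freedom). Genes with high counts can weigh most in this average, so it does not describe a single carrier. Gene positions and exon overlaps are from GENCODE v29 (GRCh38, the build of hg38).

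Alternatives were DESeq2 1.42.0, upper-quartile or library size scaling, other filters, voom with sample weights, FPKM fits, a replicate block, a length correction and leaving out each library.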

Additional observations from a re-analysis of the deposited data

Results flagged for a closer look

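In 6 of the 52 sets of 4 libraries looked at (carriers in CPM and FPKM, and ratios), 1 library lay apart from the other 3 by a share of the range above Dixon's 95% critical value. Chance gives about 1 in 20. SLC38A1 in I/R+Rk2 had replicate 4 above the others in CPM (717.6 against 666.4 to 673.6, a gap of 0.860 of the range) and in FPKM (86.1 against 76.4 to 77.0, a gap of 0.938). SLC1A5 in I/R+DMSO had replicate 4 below the others in CPM (390.5 against 415.7 to 418.7, a gap of 0.895). SLC3A2 in I/R+DMSO had replicate 1 above the others in FPKM (336 against 316 to 319, a gap of 0.879). SLC7A5 in I/R+Rk2 had replicate 4 below the others in FPKM (137 against 147 to 148, a gap of 0.898). The ratio SLC7A11/SLC3A2 in I/R+Rk2 had replicate 4 above the others (0.0519 against 0.0288 to 0.0320, a gap of 0.858). I/R+Rk2 replicate 4 was the library in 4 of the 6.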

How the results depend on the processing

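In every fit of the counts with all libraries 9 carriers passed, while limma passed 5 on log2(FPKM + 1), on log2(FPKM + 0.1), without the filter and, added after seeing the data, without I/R+DMSO replicate 1 (6 without I/R+Rk2 replicate 4). With each library left out in turn, 7 to 9 carriers passed, 7 without I/R+Rk2 replicate 2. A fold above 1.5 as well was reached by 4 to 6 carriers. Over all genes, 2351 passed, with limma 1121, 1106 and 971 in the 3 FPKM fits, 468 and 822 without I/R+Rk2 replicate 4 and I/R+DMSO replicate 1, and 1291 to 2282 with each library left out (1291, 1461 and 1512 without I/R+Rk2 replicates 4, 2 and 3). With a fold above 1.5, 393 passed in the main test and, in limma on FPKM, 341 with a pseudocount of 0.1, 210 and 186 with 1 (with and without the filter), and 152 and 162 without those libraries. Of all calls 60.2% were upwards, compared with 48.9% with upper-quartile scaling, 70.6% with library size only and 45.2% with length correction. SLC7A5 turned to -0.089 with length correction (adjusted p = 0.278, edgeR). Among the other tested solute carriers 43 rose and 16 fell, compared with 21 to 23 and 3 to 4 in limma on FPKM. Causes were not tested. The replicate numbers did not pair the libraries (correlations of deviations -0.0094 to 0.085, 1 of 4 best with its own number), and with a replicate block 9 carriers and 1814 genes passed, and the calls of SLC7A7 (adjusted p = 0.0660), SLC16A10 (0.0621) and SFXN1 (0.0941) were lost. The carriers had at least 402 counts per library; depth limits the genes near the count filter.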
